A study of Caenorhabditis elegans with 2 samples.

Results

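On the autosomes of Caenorhabditis elegans, 323 of 1026 peaks of the transcription factor CEH-39 stood at divergent gene pairs, where neighbouring protein-coding genes on opposite strands begin close to each other. The peaks were those that the authors' pipeline kept after thresholding by the irreproducible discovery rate (IDR), which asks how well ranked peaks recur between replicates; that list held 1244 peaks with the X chromosome included. A peak was taken when its summit, the position of highest enrichment, lay from 1000 bp upstream to 200 bp downstream of transcript starts of at least 2 protein-coding genes, with at least 1 start on each strand. Another 473 autosomal peaks had starts of 1 strand only in reach and served as the comparison, and 230 had none. The 18 divergent peaks on X were not included.

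The data came from chromatin immunoprecipitation and sequencing (ChIP-seq) of eGFP-tagged CEH-39 in mixed-stage embryos of both sexes, as 2 biological replicates of 1 group. Strain OP169 has the genotype unc-119(ed3) III; wgIs169, and the wgIs169 insertion carries the tagged ceh-39. Whole embryos were used, so a peak averages over all cell types and binding in different tissues cannot be told apart. The values were peak positions and a signal value per peak, with replicate 1, replicate 2 and their pool each called against a control that was not analysed here. No source used here gives the scale of the signal value, and with no read counts at hand the depth is unknown.

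CEH-39 belongs to the ONECUT family, whose members bind DNA through a cut domain and a homeodomain. It is encoded on X and is known as an X signal element, which acts with others to report the number of X chromosomes to the sex-determination gene xol-1. A divergent pair has its genes head to head, so that a single stretch of open DNA can hold the regulatory sequence of both. In C. elegans the true start of transcription is often hidden, because many pre-messenger RNAs receive a spliced leader at an acceptor site ending in AG, and the annotated start then marks that site. The distances below are to annotated starts.

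On chromosomes II to V, 5 of the strongest peaks with starts at most 300 bp apart, the summit between them and no annotated exon there are shown whole, from the base after the minus-strand start to the base before the plus-strand start. They are the cases in which the complete DNA shared by both genes can be read. The sequence is the plus strand of the RefSeq genome of build WBcel235, the assembly that ce11 names. Capitals mark 5 hexamers on either strand. They are the ONECUT core ATCGAT with its relative ATTGAT, and the motifs ACGCAG, which is frequent at these summits, GAGCGC and the repeat GAGAGA. Capitals also mark TTTCAG, whose reverse complement is written CTGAAA, where it directly borders a start. The serine protease gene try-5, the mitochondrial ribosomal protein gene mrps-28 and the germline RNA regulator nos-3 are among the genes on the right-hand side.
T26A8.4/pdtf-1: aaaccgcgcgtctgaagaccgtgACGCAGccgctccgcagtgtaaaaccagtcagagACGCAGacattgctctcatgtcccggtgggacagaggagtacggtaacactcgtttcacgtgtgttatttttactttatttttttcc
K07B1.7/try-5: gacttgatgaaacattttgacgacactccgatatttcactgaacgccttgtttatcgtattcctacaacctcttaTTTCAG
Y43F8C.7/mrps-28: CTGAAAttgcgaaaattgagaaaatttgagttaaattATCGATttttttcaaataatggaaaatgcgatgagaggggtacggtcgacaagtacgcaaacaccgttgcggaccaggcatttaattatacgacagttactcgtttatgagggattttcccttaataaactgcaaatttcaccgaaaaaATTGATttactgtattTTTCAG
ears-2/uncp-18: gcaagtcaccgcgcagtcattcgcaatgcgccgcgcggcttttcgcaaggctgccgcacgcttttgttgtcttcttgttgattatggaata
Y53C12B.1/nos-3: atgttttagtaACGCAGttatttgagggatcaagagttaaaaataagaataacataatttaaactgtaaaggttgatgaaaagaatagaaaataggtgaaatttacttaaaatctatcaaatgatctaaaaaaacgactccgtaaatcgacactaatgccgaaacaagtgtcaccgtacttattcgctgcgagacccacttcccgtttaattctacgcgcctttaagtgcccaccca
These regions span chrIV:8432894-8433037, chrV:9346963-9347043, chrV:19644031-19644238, chrIV:390469-390559 and chrII:9746079-9746315, in the order printed. The summit stood at base 68 of the 144 bases between T26A8.4 and pdtf-1, just to the right of the second of 2 copies of ACGCAG. It stood at base 66 of 208 between Y43F8C.7 and mrps-28, near an ATCGAT. Between K07B1.7 and try-5 (base 21 of 81) and between ears-2 and uncp-18 (base 33 of 91) none of the 5 hexamers occurred in the gap. Between Y53C12B.1 and nos-3 the summit was at base 204 of 237, far from the only ACGCAG. Their pooled signal values, in the same order, were 496, 222, 171, 170 and 164.

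Divergent promoters held a larger share of the peaks than of the promoter sequence. Of all autosomal promoter peaks, 40.6% (95% exact interval 37.1 to 44.1%) were divergent, whereas divergent windows made up 9.91% of all promoter-window bases. Per megabase there were 145 peaks in the 2.23 Mb of divergent windows, 23.4 in the 20.2 Mb of windows of 1 strand, and 3.83 outside both. The share ran from 35.9% on chromosome II to 45.2% on chromosome III, with 77 peaks on I, 56 on II, 80 on III, 57 on IV and 53 on V. Intervals here cover counting error over peaks only, since neighbouring peaks are not independent. Divergent windows lie in reach of starts on both strands, while the windows of 1 strand also hold the outer window ends of divergent pairs. The densities and shares are therefore not on equal terms. How far this geometry, or expression or chromatin state of divergent genes, enters was not tested.

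Seen from the gene side, 303 of 2382 adjacent head-to-head autosomal pairs with starts at most 2000 bp apart had an IDR summit in reach of both starts, or 12.7% (11.4 to 14.1%). The share differed with how far apart the starts lay. It was 9.70% (35 of 361; interval 6.85 to 13.2%) for starts up to 250 bp apart and 22.1% (114 of 517; 18.5 to 25.9%) for 250 to 500 bp. It was 16.4% (129 of 787; 13.9 to 19.2%) for 500 to 1000 bp and 3.49% (25 of 717; 2.27 to 5.10%) for 1000 to 2000 bp. In the widest class the windows reach both starts only near the middle, so part of that fall is built into the rule. Close pairs also offer fewer bases in reach of both starts. Per megabase of that reach there were 172, 287, 157 and 60.7 summits, in the same order. By this measure the closest class stood above that of 500 to 1000 bp. Among 12478 autosomal genes in no such pair, 423 had a summit in a start's window, or 3.39%. Pairs and single genes differ in unit and in the length searched, since a pair needs a summit in reach of both starts. Over all 17242 autosomal protein-coding genes 1141 had a summit in a start's window, or 6.62%.

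**Figure D1:**
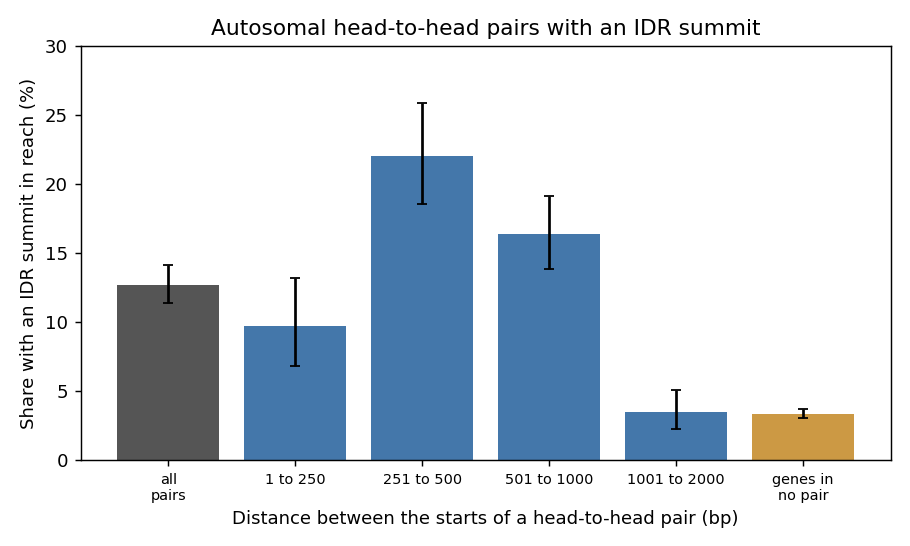
Share of autosomal head-to-head gene pairs (%, bars) with an IDR summit in reach of both starts, by the distance between the starts in bp, beside all pairs and genes in no pair. Error bars are 95% exact intervals. Pairs 250 to 500 bp apart had the highest share, 22.1%, against 3.39% of genes in no pair. Pairs and single genes differ in unit and in the length searched.

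The 323 peaks belonged to 320 pairs made of 640 genes, called bound pairs here. In 298 cases a single gene of each strand was in reach, in 24 cases 3 genes, and in 1 case 4 genes. Gene bodies were head to head without overlap for 311 peaks and overlapped for 12. The nearest starts on the 2 strands were a median of 519 bp apart (quartiles 332 and 744). Over all head-to-head pairs with outermost starts at most 2000 bp apart it was 658 bp. The 2 medians are not on equal terms, since the rule leaves wide pairs little room to qualify. With windows of 500 and 2000 bp upstream the median for the peaks was 402 and 638.5 bp. The closest were ash-2 and Y17G7B.20, whose starts crossed by 6 bp, then Y46G5A.7 and Y46G5A.8 (6 bp) and Y59E9AL.36 and nbet-1 (20 bp). The widest gaps were 1598 bp between nmat-2 and rab-5, the gene of an early endosome GTPase, 1423 bp between nhl-2 and tag-340, and 1382 bp between F40F11.3 and mig-38. In 3 pairs a start used was that of a non-coding transcript of a protein-coding gene (clpp-1/mdt-22, rsp-2/rsp-1 and Y17G7B.20/ash-2).

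Most summits lay between the starts, a placement that the rule favours, and often nearer to their middle than to either end. Of the 323 summits, 301 stood between the starts, or 93.2% (89.9 to 95.7%). Of the other 22, 21 lay downstream of the nearer start, by at most 168 bp. The rule reaches 1000 bp upstream of a start but only 200 bp downstream, so much of the share between the starts is built in. For starts over 1000 bp apart it allows no other placement, and all 29 such summits lay between them. The nearer start was a median of 152 bp away (76 to 242) and the farther 347 bp (227.5 to 518). The nearer start belonged to the plus-strand gene in 162 cases and to the minus-strand gene in 159, with 2 ties. For gaps up to 1000 bp with the summit inside, 193 of 272 summits, or 71.0% (65.2 to 76.3%), fell between 25% and 75% of the way across, where summits spread evenly would put 50%. The median distance to the nearer start was 41 bp in gaps up to 250 bp and 121, 218 and 337 bp in the 3 wider classes. Such growth is largely built in, since a summit between the starts cannot lie farther from the nearer one than the middle. As a fraction of the gap, the median distance of summits between the starts was 0.30, 0.36, 0.32 and 0.27, in the same order. In all, 144 summits were within 300 bp of both starts and 102 within 100 bp of the nearer one, while 88 were over 500 bp from the farther one. Summits at promoters of 1 strand lay a median of 240 bp upstream of their nearest start.

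**Figure D2:**
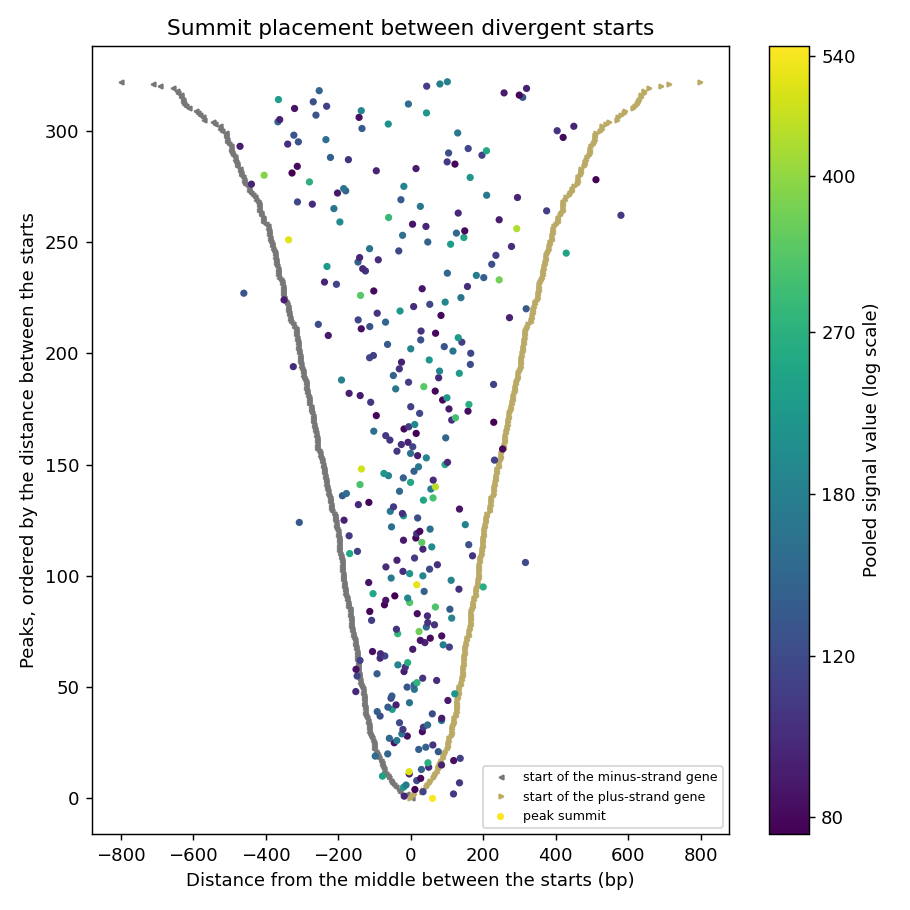
Summit positions (dots) relative to the middle between the nearest starts, in bp, for the 323 peaks ordered by the distance between the starts; grey and tan triangles mark the minus-strand and plus-strand starts. Colour gives the pooled signal value on a log scale. Of the summits, 301 lie between the triangles; the 4 strongest peaks have gaps of -6, 369, 778 and 145 bp.

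Some of the membership rests on a few base pairs. The last peaks to qualify had their farther start 994 bp (R107.5/cls-2), 992 bp (dyf-2/cul-2) and 977 bp (T10E9.8/T10E9.2) away. Just outside were a peak at C40A11.6 that missed C40A11.2 by 2 bp, one at wht-3 that missed har-1 by 15 bp and one at nop-1 that missed nono-1 by 30 bp. At the signal limit of the IDR list, the weakest members were at pcmd-1/dhhc-7 (76.9), sfxn-1.4/C47D12.4 (76.8) and B0432.10/misc-1 (76.7). The next pooled peaks at divergent pairs, outside the list, were at simr-1/C06A5.3 (76.3), tdpt-1/tfg-1 (76.04) and T04D3.5/gcy-35 (75.8).

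In 3 pairs more than 1 IDR summit was in reach of both genes. Between rpl-1 and Y71F9AL.9 the summits stood 248 and 453 bp upstream of rpl-1, with pooled signals of 135 and 110, and both overlapped the same peak of replicate 2. Between ecps-1 and atx-2, the worm ataxin-2 gene, the pooled signals were 164 and 111, at 207 bp from ecps-1 and 44 bp from atx-2. At the SR splicing factor genes rsp-2 and rsp-1 they were 158 and 80.7. The stronger lay 150 bp upstream of the start of a non-coding rsp-1 transcript at position 11453362, and the weaker 89 bp upstream of a later rsp-1 start at 11453974, and so inside that non-coding transcript. The weaker had a signal of 84.5 in replicate 1 and no peak in the list of replicate 2.

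Signal values were somewhat higher at divergent pairs than at promoters of 1 strand, with broad overlap. In the pooled list the median was 118 (quartiles 95.7 and 167, range 76.7 to 554) against 106 (87.7 and 140), a difference of 12.6. A divergent peak exceeded a peak at a promoter of 1 strand in 58.5% of all pairings (two-sided Mann-Whitney test, adjusted over 3 lists, p = 1.51e-04, n = 323 and 473). In the overlapping peaks of replicate 1 the medians were 95.6 and 88.4 (adjusted p = 0.0027, n = 322 and 470). In those of replicate 2 they were 26.8 and 23.8 (Mann-Whitney test, adjusted p = 4.73e-04, n = 312 and 443). The 2 lists are on separate scales and are not compared with each other. The divergent median was the higher on each of the 5 autosomes, from 114 against 112 on I to 123 against 108 on III. Of the 100 strongest IDR peaks 35 were divergent and 34 stood at autosomal promoters of 1 strand. Over all 1244 IDR peaks the numbers were 323 and 473.

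**Figure D3:**
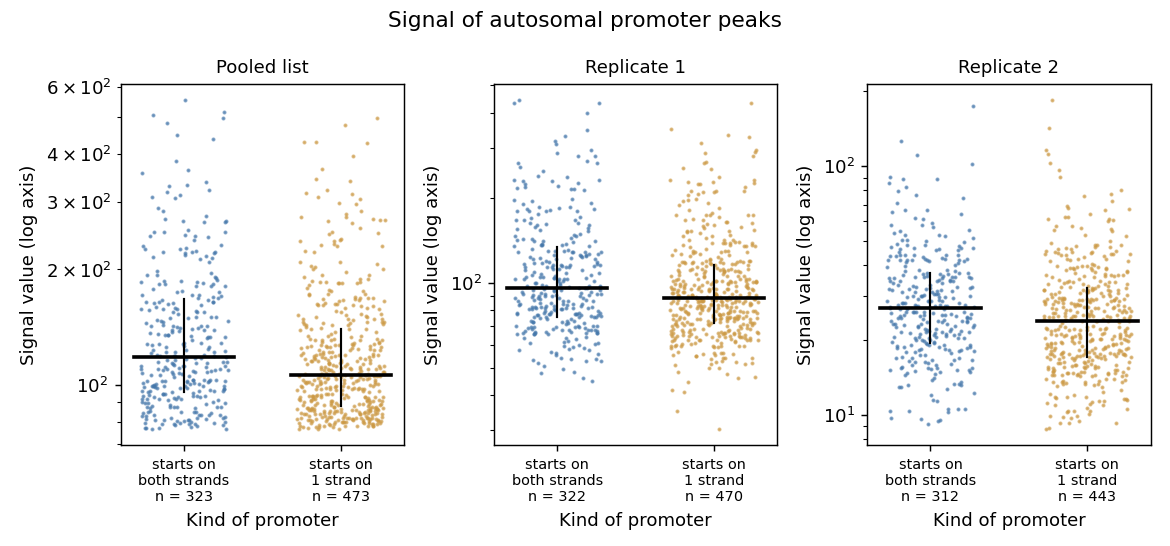
Signal value per peak (log axes, scale not given by the sources) at autosomal promoters with starts on both strands or on 1 strand, in the pooled list and in overlapping peaks of each replicate. Thick bars are medians and thin bars quartiles; the divergent medians are 118, 95.6 and 26.8 against 106, 88.4 and 23.8, and the ranges overlap.

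Among the divergent peaks, signal did not follow the distance between the starts (Spearman's rho 0.002 over 323 peaks) or the distance to the nearer start (rho 0.079). It was higher where the GC content within 50 bp of the summit was higher (rho 0.314). Pooled signal followed replicate 1 (rho 0.933, 322 peaks) more than replicate 2 (rho 0.630, 312 peaks), and the replicates correlated at 0.426 over 311 peaks. These correlations are across peaks that share their libraries and were chosen by a limit on pooled signal.

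The IDR list was made from the lists of both replicates and their pool, so matches of its members in the replicate lists were partly fixed. They are given as a description. Not every member recurred: 11 had no peak in the full list of replicate 2, and 1 had none in that of replicate 1. Among as many of the strongest peaks of replicate 1 as the IDR list holds, 298 of the 323 had a match, or 92.3% (88.8 to 94.9%), against 89.5% of all autosomal IDR peaks. In replicate 2 the number was 206, or 63.8% (58.3 to 69.0%), against 56.1% of all autosomal IDR peaks and 50.95% at promoters of 1 strand. Any peak of the full list of replicate 1 matched 322, or 99.7%, against 99.4% of all autosomal IDR peaks, and any peak of replicate 2 matched 312, or 96.6%, against 94.6%. At a q-value under 0.05, 167 of them, or 51.7%, were present in replicate 2, against 471 of all 1026 autosomal IDR peaks, or 45.9%. In that list 790 peaks in all passed that level. Replicate 1 had 3958 such peaks.

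The strongest divergent peak lay at chrII:11979725-11980095, between Y17G7B.20 and ash-2, which encodes a subunit of the histone H3 lysine 4 methyltransferase complex. Its signal was 554 in the pool, 443 in replicate 1 and 111 in replicate 2, ranks 1, 1 and 8 in those lists. Its summit was 57 bp upstream of Y17G7B.20 and 63 bp inside a non-coding ash-2 transcript. With starts of protein-coding transcripts only, a setting chosen after the data were seen, the gap to ash-2 was 582 bp and the summit lay 525 bp upstream of it. C37A2.8/E02D9.1 followed the histone pair his-67/his-68 with 506 (433 in replicate 1 and 76.8 in replicate 2), T26A8.4/pdtf-1 had 496 (398 and 88.5), and nono-1/nop-1 had 484 (432 and 52.4). The nop-1 gene acts in pseudocleavage of the early embryo. All of these ranked among the 100 strongest of both replicates.

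The next in order were rpl-20/Y17G9B.5 (pooled signal 449), K01G5.10/tasp-1 (439), iff-2/F54C9.14 (384), F29A7.8/fbxb-107 (364), his-31/his-32 (357) and rps-20/ekl-4 (339). iff-2 encodes a translation factor of the eIF5A type, and rpl-20 and rps-20 proteins of the large and the small ribosomal subunit. They were followed by epc-1/Y111B2A.12 (332), rheb-1/spk-1 (331), drr-2/set-16 (323) and ZK643.5/ZK643.2 (318). epc-1 is the Enhancer of Polycomb homologue, rheb-1 a small GTPase of the TOR pathway, spk-1 an SR protein kinase and set-16 a histone methyltransferase of the MLL family. The rheb-1/spk-1 peak stood apart between replicates, with a signal of 311 and rank 17 in replicate 1 but 25.7 and rank 775 in replicate 2. All 15 of these peaks ranked 36 or better in replicate 1, and 12 of them were among the 100 strongest of replicate 2.

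Cytosolic ribosomal protein genes were the most frequent of the 15 gene groups examined. Of 81 such autosomal genes, 41 stood in a bound divergent pair, or 50.6%, against 3.71% of all autosomal protein-coding genes (640 of 17242). Counting promoters of any kind, 62 of the 81 had a summit, against the 6.62% above. The 39 peaks had a median signal of 155 (79.7 to 449), against 118 over all divergent peaks. In 3 of them both genes encode ribosomal proteins. The summit at rps-10/rpl-24.1 had a signal of 217 (157 in replicate 1 and 61.3 in replicate 2). That at rpl-39/rps-30 had 158 (130 and 32.6), and that at rps-14/rpl-36 had 147 (118 and 35.4).

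The partners of ribosomal protein genes were of many kinds. They included ekl-4, hsr-9, the cell-cycle regulator gene lin-54 with rpl-12, the poly(A)-binding protein gene pab-1 with rpl-30, and the securin gene ify-1 with rpl-22. In the 36 peaks with a ribosomal protein gene on 1 side only, the summit was farther from that gene than from its partner in 25. The median distance was 298.5 bp upstream of the ribosomal protein gene and 178 bp upstream of the partner. For rps-0/rbg-3 these were 298 and 75 bp, for tmem-107/rps-26 406 and 51 bp, and for sec-61.A/rps-18 the summit lay 515 bp upstream of rps-18 and 100 bp inside sec-61.A. The opposite order occurred at rpl-12/lin-54, with 28 bp to rpl-12 and 365 bp to lin-54.

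**Figure D4:**
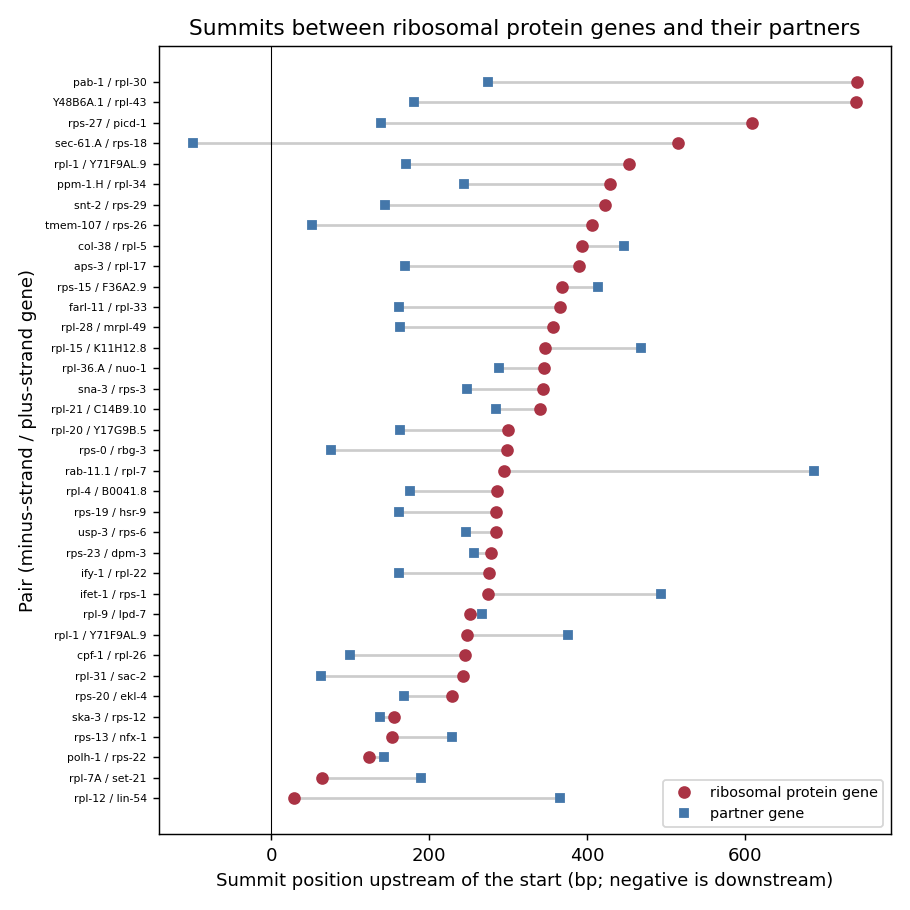
Distance of the summit upstream of the start (bp, negative is downstream) for the 36 peaks with a cytosolic ribosomal protein gene (red circles) on 1 side and another gene (blue squares) on the other. The circle is to the right of the square in 25 of 36 rows, with medians of 298.5 and 178 bp.

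Where a histone gene stood in a bound divergent pair, its partner was mostly a histone gene too. In 5 of the 6 peaks of this group both genes encode core histones, and the sixth lay between wapl-1, which encodes a cohesin release factor, and htz-1, the gene of the variant H2A.Z. The his-67/his-68 peak had a signal of 516 (347 in replicate 1 and 175 in replicate 2), and his-31/his-32 had 357 (256 and 86.0). wapl-1/htz-1 had 216 (175 and 41.9), his-4/his-3 184 (100.04 and 82.8), his-60/his-59 161 (109 and 53.1) and his-61/his-62 149 (114 and 39.7). The 5 core histone gaps measured 257 to 369 bp, and the median signal of the 6 peaks was 199.8. In all 11 of 77 autosomal histone genes were members, or 14.3%. Core histone genes have near-identical copies, so reads could be shared between them and the assignment to single pairs is uncertain.

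Genes of RNA splicing stood in 17 peaks, with 19 of 61 autosomal genes, or 31.1%, and a median signal of 109. The strongest were at W08E3.4/snr-2 (314), rnp-6/rde-10 (267) and bath-42/prp-8 (250). snr-2 encodes a core Sm protein of the spliceosome and prp-8 a core protein of the U5 particle. Both genes were of this group at rsp-2/rsp-1 and, with weaker peaks, at snu-13/rsp-7 (109) and snr-3/rsp-5 (80.1). These last 2 were weak in replicate 2, at ranks 7211 and 5978. Chaperone genes had 13 of 61 members, or 21.3%, and a median of 128, led by hsp-110/rpn-3 (246), mig-5/cct-1 (227) and C47E8.4/hsp-90 (221). The summit was farther from the chaperone gene in 11 of 13.

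Translation factors and aminoacyl-tRNA synthetases had 14 of 72 (19.4%), the proteasome 8 of 33 (24.2%), the respiratory chain and ATP synthase 11 of 61 (18.03%) and the secretory pathway 14 of 94 (14.9%). Their median signals were 103, 99.8, 108 and 131. eef-1A.1/rfc-4 (308), with an elongation factor gene and a clamp-loader gene, counted for translation and for DNA replication. Y71H2AM.20/cox-6B (231), cup-14/ndub-8 (223) and rbc-2/ndua-8 (172) led the respiratory group, and rab-18/kbp-4 (239), nsf-1/adr-1 (190) and mrg-1/spcs-2 (183) the secretory one. The nsf-1/adr-1 peak ranked 13678 in replicate 2. sec-61.B/trap-3 (143) had genes of protein translocation into the endoplasmic reticulum on both sides. rpn-5/scc-1 (112) and pas-4/rpb-3 (143) were further proteasome pairs. pas-4/rpb-3 and Y37E3.1/rpb-10 (96.4) held the 2 of 21 RNA polymerase genes (9.52%, against 3.71% of all autosomal protein-coding genes). Mitochondrial ribosomal proteins had 9 of 71 (12.7%) with a median of 100.2, led by mrps-7/Y57G11C.3 (185), Y43F8C.7/mrps-28 (171) and F54C4.4/mrpl-40 (155).

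Cell cycle and DNA replication genes had 13 of 81 (16.0%) and a median signal of 122. After eef-1A.1/rfc-4 came F59E12.17/zyg-1 (276), the gene of the centriole duplication kinase, and C29A12.1/lig-1 (164), a DNA ligase. The summit was farther from the cell cycle gene in only 2 of 13, and lay at a median of 193 bp upstream of it against 372 bp for the partner. Chromatin modifiers had 7 of 69 (10.1%), with drr-2/set-16, dot-1.1/zwl-1 (222) and set-26/tsr-2 (175) the strongest. Nuclear hormone receptors, the largest list, had 1 of 246 (0.41%), nhr-47 with dnj-19 (126). Cuticle collagens had 4 of 137 (2.92%), led by col-2/ndc-80 (191), col-38/rpl-5 (167) and col-8/rfl-1 (88.7). Homeobox ceh genes had 2 of 45 (4.44%), the ONECUT gene ceh-38 with malt-1 (268) and ceh-100 with lips-15 (81.1). The shares of collagen and ceh genes were near the 3.71% of all autosomal protein-coding genes and are not read as results about these families. The ceh-38 peak ranked 3043 in replicate 2, and the ceh-100 peak had none there. The groups overlap and were read as counts without a test.

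Genes annotated as transfer RNA, small nuclear RNA, snoRNA or microRNA were looked for in these gaps, and no other kinds. Transfer RNA genes lay in 2 (Y38E10A.22/Y38E10A.24 and gcy-33/cpr-9) and genes annotated as small nuclear RNA in 2 (H27M09.5/syp-4 and tim-1/Y75B8A.23). A snoRNA gene lay in 1 (attf-2/F09G2.2) and a microRNA gene in 1, at eef-1A.1/rfc-4. The share over all head-to-head pairs is not given here, so these counts are not read as few or many.

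The GC content within 50 bp of the summit was a median of 47.5% (quartiles 42.6 and 51.5), against 32.7% at the midpoints of the 2079 head-to-head pairs without an IDR summit. At promoters of 1 strand it was 46.5% (Mann-Whitney test, p = 0.15, n = 323 and 473). In windows centred 350 bp to either side it was 37.6% and 37.6% for divergent peaks and 34.7% and 35.6% for the others. Around divergent summits the GC peak was bordered by dips that were lower than at promoters of 1 strand. Both profiles were averaged along the plus strand without regard to gene direction. At promoters of 1 strand the start therefore lies on either side, and what this adds to the difference was not tested.

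**Figure D5:**
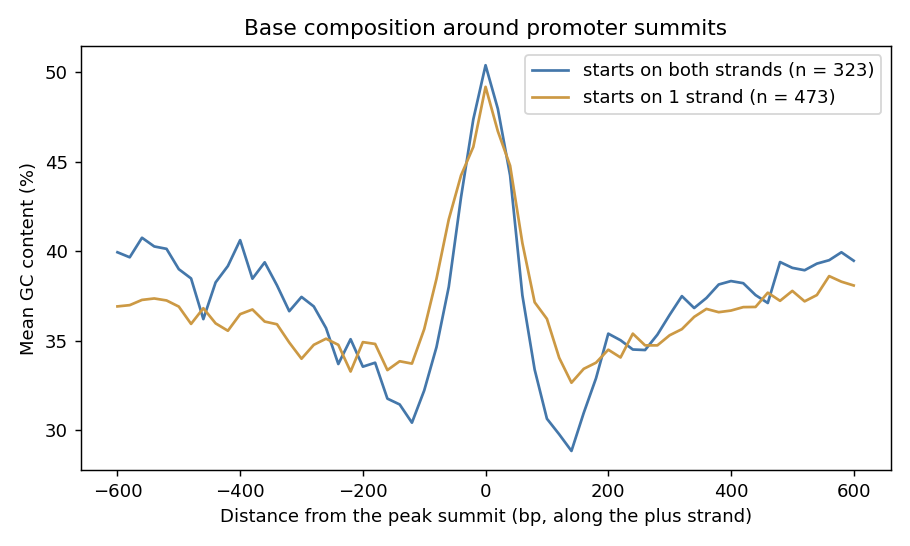
Mean GC content (%) against the distance from the summit in bp along the plus strand, for 323 divergent peaks and 473 peaks at promoters of 1 strand. Both curves peak at the summit, at 50.4% and 49.2%; their lowest means are 28.9% and 32.7%.

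Short motifs were counted at the summits and beside them. The motif ATCGAT is the ONECUT core and ATTGAT its relative; the other 3 hexamers were known as frequent at the summits from earlier results of these data. Each was searched on both strands within 50 bp of the summit, and a window could hold several: 185 of 323 windows held at least 1 and 51 held 2 or more. The comparison window was centred 350 bp to the lower-coordinate side, and its centre lay between the starts in only 94 cases (29.1%), so it was often gene sequence. Since those 3 were chosen for being frequent at summits of this peak list, their shares against flanks are a description and carry no test. The adjusted values for ATTGAT and ATCGAT below were nevertheless taken over all 5 motifs, those 3 included. GAGCGC stood at 23.5% of summits against 2.48% of flanks, a ratio of 9.5, which was 4.0 without replicate 1 and 11.0 without replicate 2. ACGCAG stood at 18.6% against 2.48% (ratio 7.5), and GAGAGA at 14.9% against 6.50% (2.29). ATTGAT was rarer at summits, 6.19% against 12.7% (0.488, exact McNemar test, adjusted p = 0.0081), although this call was lost under 6 of the alternatives tried. ATCGAT stood at 12.4% (9.0 to 16.5%) against 8.98% (1.38, exact McNemar test, adjusted p = 0.19). With the higher-coordinate flank, which held it in 5.26%, the ratio was 2.35 and passed (exact McNemar test, adjusted p = 0.0040).

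At midpoints of pairs without a summit, the shares were 3.94% for ATCGAT, 10.8% for ATTGAT, 2.84% for ACGCAG, 2.84% for GAGCGC and 6.35% for GAGAGA. Those midpoints are also poorer in GC, and the part of base composition was not tested. At promoters of 1 strand, flanks held GAGCGC in 1.27%, ACGCAG in 1.69%, ATCGAT in 4.65%, GAGAGA in 6.55% and ATTGAT in 13.5%. The ratio of summits to flanks there was above that at divergent pairs for all but ATTGAT (0.469). It was 3.86 for ATCGAT and 3.68 for GAGAGA. The contrasts of summits with flanks were therefore not particular to divergent pairs, and the ratios of the 2 classes were not compared by a test. Against peaks at promoters of 1 strand, GAGCGC was more frequent at divergent pairs (23.5% against 15.2%, Fisher's exact test, adjusted p = 0.0098) and GAGAGA less frequent (14.9% against 24.1%, Fisher's exact test, adjusted p = 0.0083). Without replicate 1, in the strongest peaks of replicate 2, neither difference passed (4.28 and -1.04 percentage points, Fisher's exact tests, adjusted p = 0.27 and 0.74). Both also failed within 25 bp of the summit and with windows of 500 bp upstream, and that of GAGCGC in the 622 strongest IDR peaks. ATCGAT (12.4% against 17.97%) and ACGCAG (18.6% against 20.3%) did not pass (Fisher's exact tests, adjusted p = 0.062 and 0.73), nor did ATTGAT (6.19% against 6.34%, adjusted p = 1).

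Divergent peaks with ACGCAG had a median signal of 153 (60 peaks) against 112 without (263). The other motifs differed by less, as for ATCGAT, with 120 against 117. Among the 15 strongest peaks, 6 had ACGCAG, 4 ATCGAT, 3 GAGAGA, 2 GAGCGC and 0 ATTGAT, and 5 had none of them. ATCGAT was present at C37A2.8/E02D9.1, nono-1/nop-1, rheb-1/spk-1 and ZK643.5/ZK643.2. A match is a description of the letters and does not show which protein binds them.

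TTTCAG directly before a start, the letters of a splice acceptor, was counted after the sequences above had been seen. It stood before 166 of 641 starts of bound divergent pairs, or 25.9%. Over the outermost starts of all autosomal genes it stood before 2117 of 17242, or 12.3%, and over those of all head-to-head pairs before 616 of 4764, or 12.9%. The starts of bound pairs were instead the nearest of any transcript to the summit, so these shares are not on equal terms. Among ribosomal protein gene starts of the bound pairs it was 23 of 41, or 56.1%. The summit lay a median of 261 bp upstream of starts with these letters and 213 bp upstream of starts without. In the 135 peaks with the letters on 1 side only, that start was the farther in 86, or 63.7%, with medians of 263 and 192 bp. Where transcription itself begins was not measured here.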

How the data were processed

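Peak lists in ce11 were used as the authors deposited them, with 2 biological replicates of 1 group. Per the deposited description files, relaxed lists of each replicate and of the pooled alignments, each against a control, were the input from which the IDR list was made. Neither the aligner nor the caller is named in the sources used here. The deposited signal value and the deposited −log10 q-value of each peak are the authors' own; the signal's scale is not stated, and depth is unknown.

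Gene starts came from Ensembl release 115 on WBcel235, taking every transcript of a protein-coding gene, and sequence from the RefSeq genome of that assembly. A peak's pair was its nearest start in reach on each strand. A replicate peak matched by at least 1 bp of overlap. Classes of peaks were compared with two-sided Mann-Whitney and Fisher's exact tests and summits with flanks by exact McNemar tests, with Benjamini-Hochberg adjustment. Peaks are not independent replicates. Python 3.11.15, scipy 1.17.1, numpy 2.4.6, pandas 2.3.3 and matplotlib 3.10.9 were used, and the functions were tested on simulated data.

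The peaks, lists and motifs were chosen with earlier results of these data known. Gene lists were matched by gene symbol and trimmed after the genes had been seen. Named were the 15 strongest peaks, the 3 smallest and 3 widest gaps, those nearest the distance and signal limits, pairs with more than 1 summit, and up to 3 peaks and all same-list pairs for each list. Of the 6 strongest short gaps free of exons on chromosomes II to V, the sequence of 1 is not reported here. Others in the ribosomal protein group were chosen after their values were seen. Alternatives changed the peak list, the windows, the start annotation, the flank and the overlap rule.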

Additional observations from a re-analysis of the deposited data

How the results depend on the processing

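Of 199 values recomputed for 25 results, 148 kept their side of the threshold with no change of sign or, with no test, stayed within the SD between replicates or, for counts, within 1.5 times. Among these, the uncalled GC difference was 0 with replicate 1 alone. Also among the values that kept their side was every summit-against-flank ratio of the motifs chosen for being frequent at these summits. That choice favours such an outcome, so these values say little about robustness. The median gap was 519 bp with either replicate alone. Its SD between replicates was therefore 0, and any change in it counted as moved. The signal difference stayed past the threshold under each alternative tried for it. It was 7.57 to 13.5 in pooled signal, and 7.53 and 2.03 on the separate scales of replicates 1 and 2. The GAGCGC summit ratio was 4.0 to 11.0 between single replicates.

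With the lists of replicates 1 and 2 alone, in that order, the divergent share of promoter peaks was 40.4 and 40.5%, summits between the starts 93.8 and 89.3%, the middle part of the gap 65.7 and 72.9%, and occupied pairs 12.6 and 11.04%. With the 622 strongest IDR peaks the divergent share was 46.1%, with 190 divergent peaks, a median gap of 523.5 bp, a nearer start at 162.5 bp, 7.56% of pairs and 9 splicing peaks. With the 2488 strongest pooled peaks these were 36.1%, 548, 497 bp, 144 bp, 21.3% and 26, with 20 chaperone and 10 histone peaks. Windows of 500 and 2000 bp upstream gave shares of 33.5 and 48.7%, gaps of 402 and 638.5 bp and nearer starts at 139 and 166 bp. The former gave 76.9% in the middle part, and the latter 10 histone peaks. Gaps were 517.5 bp with outermost starts, 520 bp with head-to-head pairs (share 39.7%) and 522 bp with protein-coding transcripts only, an alternative chosen after the data were seen.

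The ATCGAT ratio passed with the 2488 pooled peaks (1.58), 2000 bp windows (1.79), 100 bp around the summit (1.59) and the higher flank (2.35). Its difference from promoters of 1 strand passed with the 2488 peaks (-4.60 points), 500 bp windows (-9.10) and 100 bp (-8.05). The ATTGAT ratio no longer passed with the 622 peaks (0.50), 500 bp windows (0.556), 25 bp (0.412), 100 bp (0.806) and the higher flank (0.667), and was 0.475 to 0.562 between single replicates. The GAGCGC difference no longer passed with the 622 peaks (3.26 points), 500 bp (5.16) and 25 bp (2.24), and was 4.28 to 8.33 between replicates. The GAGAGA difference no longer passed with 500 bp (-5.92) and 25 bp (-4.02), and was -7.74 to -1.04. The ACGCAG difference, uncalled, turned positive within 25 bp (2.67) and was -0.835 to 4.02. The causes were not tested. No paired analysis was possible because there was 1 group. Few summits per list and unknown depth limit the counts.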
